A study of Mus musculus with 12 samples.

Results

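The Bex and Tceal genes described here are Bex1, Bex2, Bex3, Bex4, Tceal1, Tceal8 and Tceal9, 7 of the 47642 genes in the table of normalized counts. They were taken by name as a family, and the family was chosen by the differences of Bex4 from wild-type in both knockouts. The differences of Bex4 from wild-type are therefore given as levels, with no test, and the same is done for the other 6 genes. The choice did not rest on the difference between the 2 mutant genotypes, which was tested. For Bex4 this difference uses the same mutant libraries as the choice, so its test is not separate from it. Counts over the 7 genes include Bex4.

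Bex ("brain-expressed X-linked") and Tceal ("transcription elongation factor A like") genes sit together on the X chromosome and encode small proteins with a shared domain. They are best known from brain and from endocrine tissue. Bex1 and Bex3 bind the intracellular part of the neurotrophin receptor p75, Bex3 is linked to cell death signalled through that receptor, and Bex4 associates with microtubules. The Tceal proteins are named for their likeness to the elongation factor TFIIS, which helps stalled RNA polymerase II to go on, and Tceal1 was described as a nuclear protein that modulates transcription.

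RNA was sequenced from mIMCD3 cells, a mouse epithelial line from the inner medullary collecting duct that carries an SV40 transgene. Wild-type cells were compared with Pkd1-/- cells, in which CRISPR editing removed most of Pkd1 on chromosome 17 from both alleles, and with Pkd2-/- cells, in which TALENs removed an internal stretch of Pkd2 on chromosome 5. Each of the 3 genotypes had 4 libraries, taken 4 days after full confluency, and each mutant genotype was 1 clone, so that the spread between libraries is a spread between dishes of one clone and holds no variation between clones. A difference between genotypes cannot be told apart from a difference between clones.

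The libraries held 25966273 to 28027792 normalized counts, and the steps between low values put their depth between 23200000 and 30300000 counted reads. Pkd1, which encodes polycystin-1, was at 682 to 883 normalized counts in wild-type cells and at 30 to 49 in Pkd1-/- cells. Pkd2 was at 3438 to 4467 in wild-type and at 3855 to 4135 in Pkd2-/- cells, where reads outside the internal deletion still count, so that its level does not check the label. Of 11 collecting duct and epithelial markers, Cdh1, Epcam, Krt8 and Krt18 were high in all 12 libraries. Hoxb7, Pax2 and Pax8 had at least 1194 normalized counts in each library. Aqp2, the water channel of the mature principal cell, was listed at 0 in all 12 libraries, and Aqp3 and Avpr2 reached at most 6 and 1. Gata3 differed between genotypes, with means of 227, 48.5 and 354 in wild-type, Pkd1-/- and Pkd2-/- cells. Of 9 neuron markers, 6 had at most 3 normalized counts in every library; the exceptions were Tubb3 (means of 123, 68 and 424 in wild-type, Pkd1-/- and Pkd2-/- cells), Syt1 (5.25, 16.2 and 0) and Elavl4 (2.75, 18.8 and 0). The summed neuron markers ranged from 111 to 158 normalized counts in wild-type, from 91 to 111 in Pkd1-/- and from 385 to 529 in Pkd2-/- libraries. Fibroblast markers summed to 32 to 58 normalized counts in wild-type, 89 to 103 in Pkd1-/- and 15 to 141 in Pkd2-/- libraries. Among them Col3a1 had 3 to 7 in wild-type, 62 to 69 in Pkd1-/- and 0 to 42 in Pkd2-/- libraries. Endothelial and immune markers summed to at most 77 in any library. The part of all these markers in the values below was not tested.

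All 7 genes lie within 645 kb of chromosome X (GRCm38, chrX:136066564-136711478). From left to right they are Bex2 (ENSMUSG00000042750.7, chrX:136066564-136068236), Bex4 (ENSMUSG00000047844.3, chrX:136138996-136140443), Tceal8 (ENSMUSG00000051579.10, chrX:136168984-136172342), Bex1 (ENSMUSG00000050071.8, chrX:136213972-136215513), Tceal9 (ENSMUSG00000042712.10, chrX:136245079-136247139), Bex3 (ENSMUSG00000046432.12, chrX:136270253-136271978) and Tceal1 (ENSMUSG00000049536.5, chrX:136707982-136711478), all protein-coding. Bex1, Bex2 and Tceal8 are read from the minus strand and the others from the plus strand. The RefSeq promoter table (GRCm38.p6; 250 bases before to 50 after each gene's start) held all 7 of them. The promoters fall into pairs. The windows of Bex1 and Bex4 share an identical run of 271 bases, although the genes face in opposite directions, and those of Bex2 and Bex3 share one of 162 bases. Over the other 19 pairs the longest identical run was 8 to 17 bases. The 100 bases before the start of each gene of these pairs are shown, since the members of the pairs differed in level. Capitals mark GGGCGG, the GC box. In Bex2 the box begins at -4 and runs past the start, so the printed letters cut it off. It lies within the run shared with Bex3.
Bex1: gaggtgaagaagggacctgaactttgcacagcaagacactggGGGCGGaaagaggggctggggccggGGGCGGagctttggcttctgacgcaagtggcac
Bex4: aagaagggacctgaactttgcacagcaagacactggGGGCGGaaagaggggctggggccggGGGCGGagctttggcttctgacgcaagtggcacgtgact
Bex2: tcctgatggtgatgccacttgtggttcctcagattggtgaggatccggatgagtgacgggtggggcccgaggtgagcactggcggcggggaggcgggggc
Bex3: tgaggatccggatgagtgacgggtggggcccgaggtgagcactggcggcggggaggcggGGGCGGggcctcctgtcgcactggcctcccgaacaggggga
These stretches are chrX:136215514-136215613 (minus strand, Bex1), chrX:136138896-136138995 (plus, Bex4), chrX:136068237-136068336 (minus, Bex2) and chrX:136270153-136270252 (plus, Bex3). The letters of Bex1 and Bex4 are the same but shifted by a few bases, because the annotated starts differ.

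The coding sequences pair in another way. Bex1 and Bex2, of 384 and 387 coding bases, were identical at 91.5% of positions of the longer one in a global alignment, whereas Bex1 and Bex4 were identical at 56% and Bex2 and Bex3 at 58.7%. The other pairs ranged from 44.4% to 58.6%, and the best Tceal pair was Tceal8 with Tceal9 at 56.7%. Bex1 thus had the promoter letters of Bex4 and a coding sequence close to that of Bex2. Shared letters also bear on counting. Of the 50-base windows of each gene's annotated transcripts, 49.7% in Bex4, 30.9% in Bex1, 22.2% in Bex2 and 12.3% in Bex3 also occur in a transcript of another gene. The partners were Bex4, Tceal7 and Bex2 for Bex1, and Bex1 and the processed pseudogenes Gm12245 and Gm4322 for Bex4, whose pseudogenes had at most 1 normalized count in any library. By contrast no window of Tceal1 and Tceal9 and 0.806% of those of Tceal8 were shared. How reads from such places were assigned is not given in the sources used here, so the counts of the Bex genes are less certain than those of Tceal8 or Tceal9. Bex1 also overlaps Tceal7 on the opposite strand over 735 bases, 47.7% of the gene, and without a stated strand setting reads from the overlap cannot be told apart.

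A second feature was common to most of the promoters. The letters CACGTGAC, an E-box (CACGTG) followed by 2 more bases, stood near the start of 5 of the 7 genes and in the gene's own direction. In Bex1 and Bex4 they lie within the identical run of 271 bases, so these sites are not separate occurrences. Of all 32817 distinct mouse promoter windows of this length, 2.24% held CACGTGAC on either strand, and 3.36% of the 1220 on chromosome X. CACGTG alone was in 7.15% of all windows and in the same 5 genes. The letters CACGTGAC were not particular to the 7 genes: they also stood before the start in Tceal5 and Tceal6 (first base at -17 and -14) and in Armcx4 and Armcx6 (at -3, and at -28 and -26). These letters were searched for after the promoters had been read, so the shares are a description. The sites are shown with 11 bases on either side and the motif in capitals.
Bex1: gacgcaagtggCACGTGACtagcccacgca
Bex4: gacgcaagtggCACGTGACtagcccacgca
Bex3: cgcagggccctCACGTGACccggggctgca
Tceal8: gacgcgatcctCACGTGACcagcagtcgac
Tceal1: cgcgctcccctCACGTGACcaggagcctat
They lie at chrX:136215498-136215527 (minus strand, Bex1), chrX:136138976-136139005 (plus, Bex4), chrX:136270269-136270298 (plus, Bex3), chrX:136172216-136172245 (minus, Tceal8) and chrX:136707970-136707999 (plus, Tceal1). The first letter of the motif was at -3 in Bex1, -9 in Bex4, 28 in Bex3, 18 in Tceal8 and -1 in Tceal1, counted from 1 at the RefSeq start. The windows of Bex2 and Tceal9 did not hold the letters. TGACG was found in 7 of 7 windows (20.8% of all promoters), GGGCGG in 6 of 7 (35.6%) and TATAAA in 1, Bex2 (13.6%). These were searched on both strands as well. In the 5 genes with both, TGACG and CACGTGAC shared no letters. The first bases of TGACG and CACGTGAC were at -15 and -3 in Bex1, -21 and -9 in Bex4, and -15 and -1 in Tceal1. The nearest TGACG began at 14 in Bex3 and at 6 in Tceal8, before CACGTGAC at 28 and 18.

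**Figure D1:**
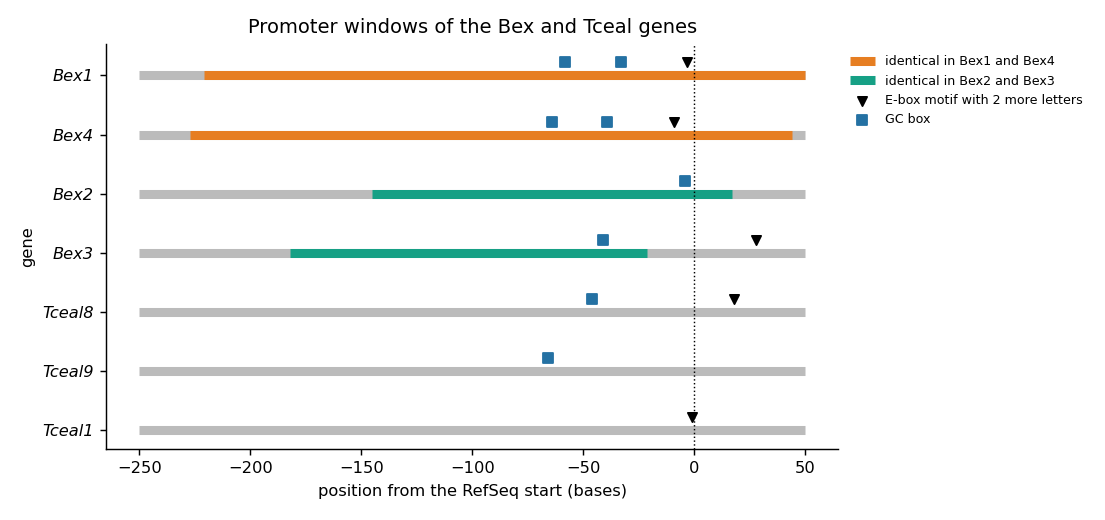
Promoter windows of the 7 genes, drawn as bars from 250 bases before to 50 after the RefSeq start (x axis, bases). Coloured stretches are the runs identical in Bex1 and Bex4 (271 bases) and in Bex2 and Bex3 (162 bases), triangles the first base of CACGTGAC and squares that of GGGCGG; the triangles of 5 genes lie close to the start.

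Wild-type mIMCD3 cells contained these RNAs at very different levels. Per kb of annotated exon, Tceal9 had 16801 ± 546 normalized counts (SD, n = 4), Bex3 4626 ± 222, Bex1 1959 ± 71.1, Tceal8 543 ± 20.5, Bex4 174 ± 22.5, Tceal1 33.2 ± 5.18 and Bex2 3.05 ± 2.91. In wild-type cells no 2 neighbours in this order overlapped in their libraries. The order was the same in both mutants, but there the libraries of Bex4 and Tceal1 overlapped: per kb, Bex4 was at 41.8 to 57.3 and Tceal1 at 35.3 to 51.4 in Pkd1-/- cells, and at 21.5 to 44.2 and 27.5 to 35.7 in Pkd2-/- cells. Tceal9, also known as a WW domain binding protein, made up 66.5% to 70.4% of the normalized counts of the 7 genes in every library. The 7 genes summed to 24868 to 26441 normalized counts in wild-type, 19881 to 23744 in Pkd1-/- and 17920 to 20076 in Pkd2-/- libraries.

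**Figure D2:**
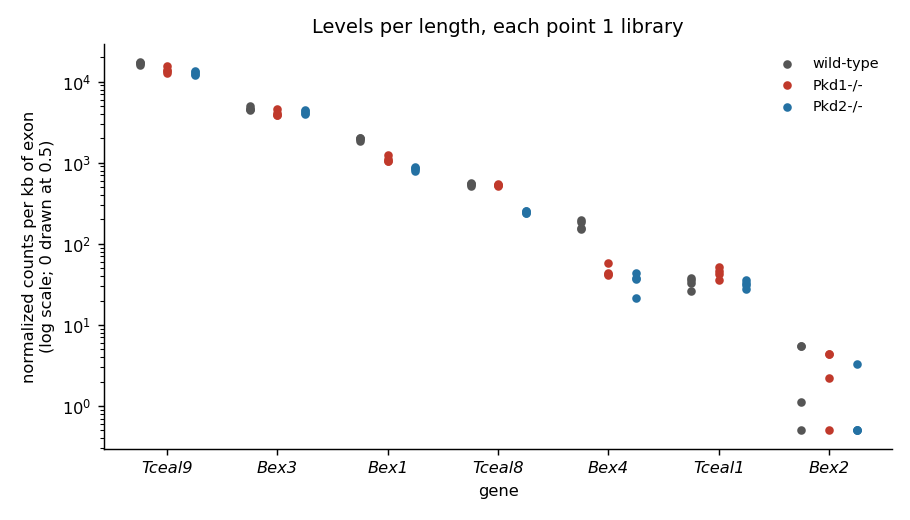
Level of each gene in normalized counts per kb of exon (y axis, log scale, 0 drawn at 0.5), 1 point per library and 4 per genotype. Tceal9 is highest and Bex2 lowest in all 3 genotypes, and Bex4 meets Tceal1 in the mutants but not in wild-type.

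Bex4, the gene that led to the choice of this family, was low in both mutants. The 4 wild-type libraries held 128, 156, 167 and 132 normalized counts, the Pkd1-/- libraries 48, 35, 36 and 37, and the Pkd2-/- libraries 31, 37, 32 and 18. All mutant libraries lay below all wild-type libraries, and the mean was 26.8% of wild-type for Pkd1-/- and 20.2% for Pkd2-/- cells. On the log2 scale of the normalized count plus 1, the scale of all fitted differences given here, Bex4 differed from wild-type by -1.88 (SE 0.20) and -2.30 (SE 0.20). The mutants overlapped each other. The difference of Pkd2-/- from Pkd1-/- was -0.43 with a 95% confidence interval of -0.86 to 0.0048, which did not pass limma's test over all genes (adjusted p = 0.101); the exact two-sided permutation test gave p = 0.114, where 4 against 4 libraries cannot go below 0.0286.

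Bex1 shares its promoter letters with Bex4, was the more abundant of the pair, and was also low in both mutants. Wild-type libraries had 2326, 2376, 2389 and 2204 normalized counts, Pkd1-/- libraries 1480, 1332, 1242 and 1240, and Pkd2-/- libraries 1003, 1011, 1044 and 927. The 3 genotypes formed 3 separate ranges, with wild-type highest and Pkd2-/- lowest. The mean was 57% of that in wild-type for Pkd1-/- and 42.9% for Pkd2-/- cells, or -0.81 (SE 0.06) and -1.22 (SE 0.06) on the log2 scale. Between the mutants, Bex1 was lower in Pkd2-/- cells, with a log2 difference of -0.41 (SE 0.06; limma, adjusted p = 1.70e-05), and every Pkd2-/- library was below every Pkd1-/- library (exact permutation p = 0.0286, the smallest possible).

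Bex3, the p75-associated member, was abundant and nearly level. Its normalized counts were 4307, 4811, 4451 and 4436 in wild-type, 4429, 4045, 3791 and 3822 in Pkd1-/- and 4239, 4026, 4360 and 3850 in Pkd2-/- libraries. Both mutant ranges overlapped that of wild-type, at means of 89.3% and 91.5% of it (log2 differences of -0.16 and -0.13, SE 0.06). Between the mutants no difference was found, with 0.04 and an interval of -0.08 to 0.15 (limma, adjusted p = 0.65).

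Bex2 was barely detected, with 5, 5, 0 and 1 normalized counts in wild-type, 4, 0, 4 and 2 in Pkd1-/- and 3, 0, 0 and 0 in Pkd2-/- libraries. All 3 group means were under 3, the value below which no fold is given. Its promoter letters over 162 bases were those of Bex3, whose libraries ran from 3791 to 4811 normalized counts. The difference between the mutants was not detectable at this depth (-1.06, interval -2.53 to 0.41; limma, adjusted p = 0.239).

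On the fitted scale Tceal8 had the largest difference between the mutants. The next was the -1.06 of Bex2, whose counts were near 0. Wild-type libraries held 1440, 1402, 1316 and 1404 normalized counts, Pkd1-/- libraries 1387, 1363, 1369 and 1311, and Pkd2-/- libraries 607, 646, 649 and 608. Wild-type and Pkd1-/- libraries covered nearly the same range, and the Pkd2-/- libraries stood apart below. Tceal8 was at 97.6% of the wild-type mean in Pkd1-/- cells (-0.03, SE 0.05) and at 45.1% of it in Pkd2-/- cells (-1.15, SE 0.05). Pkd2-/- differed from Pkd1-/- by -1.11 (SE 0.05; interval -1.221 to -1.004; limma, adjusted p = 2.06e-12; exact permutation p = 0.0286). This is the one gene of the family called between the mutants at an adjusted p under 0.05 and a log2 difference of at least 1.

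Tceal9 was modestly lower in both mutants. Its normalized counts were 17543, 17584, 17946 and 16618 in wild-type, 16252, 14016, 14280 and 13350 in Pkd1-/- and 12949, 13808, 13914 and 12430 in Pkd2-/- libraries. All mutant libraries were below all wild-type libraries, at means of 83.1% and 76.2% (-0.27 and -0.39, SE 0.06). The mutants overlapped each other and differed by -0.12, which missed the threshold (interval -0.24 to -0.0032; limma, adjusted p = 0.0881; exact permutation p = 0.143).

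Tceal1 was the only one of the 7 with a higher mean in one mutant. It had 99, 107, 93 and 73 normalized counts in wild-type, 144, 99, 131 and 119 in Pkd1-/- and 91, 100, 77 and 87 in Pkd2-/- libraries. The Pkd1-/- libraries overlapped those of both other genotypes, with a mean of 133% of wild-type (0.40, SE 0.15), against 95.4% in Pkd2-/- cells (-0.06, SE 0.15). Pkd2-/- was lower than Pkd1-/-, with a log2 difference of -0.46 (SE 0.15; limma, adjusted p = 0.0166), but the adjusted p was 0.0614 without Pkd1-/- replicate 1 and 0.0541 without Pkd2-/- replicate 3, and the exact permutation p was 0.0571.

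**Figure D3:**
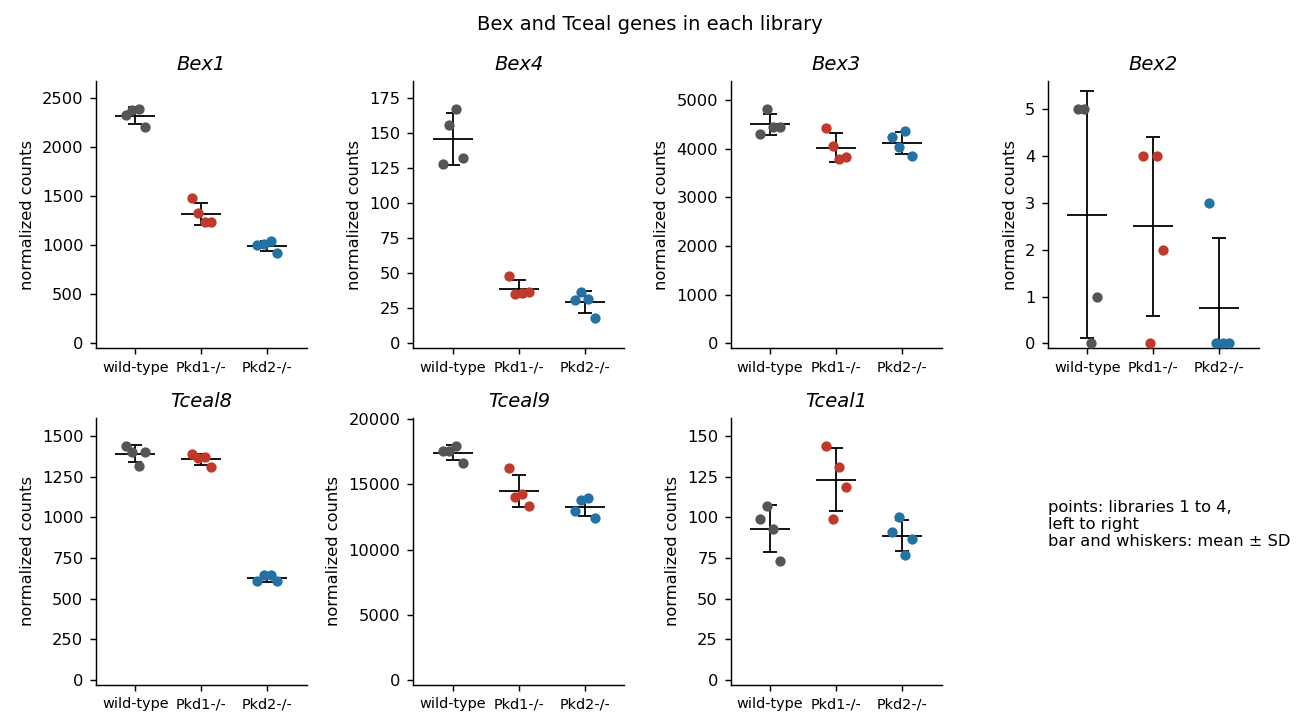
Normalized counts of the 7 genes in each library (y axes, each including 0), by genotype; bars and whiskers give mean ± SD of 4 libraries. Bex1 and Bex4 are low in both mutants, Tceal8 in Pkd2-/- alone (607 to 649 against 1311 to 1440 in the other genotypes), and Bex3 overlaps in all 3.

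All 7 genes passed the filter on low values, a mean of at least 1 normalized count over the 12 libraries. Every Pkd1-/- library lay below every wild-type library for 3 of the 7 (13.6% of all genes lay so, and 27.1% did not overlap either way), and every Pkd2-/- library did for 4 of the 7 (19.8% and 37.2%). Bex4, which led to the choice of the family, is in both of these counts against wild-type, and nothing is read from them. Both comparisons share the wild-type libraries. Between the mutants, 1 of 7 was called, against a background of 11.8% (7.23% lower and 4.53% higher). At an adjusted p under 0.05 with no limit on size, 3 of 7 (Bex1, Tceal1 and Tceal8) were lower in Pkd2-/- cells, none was higher and 4 did not pass, against 46.3% of all genes either way, 24.3% lower and 21.9% higher. In 2 of 7, Bex1 and Tceal8, the libraries of the mutants did not overlap and Pkd2-/- was lower; over all genes 41.8% did not overlap, 22% with Pkd2-/- lower and 19.8% with it higher. Median differences over the family were -0.16 for Pkd1-/- and -1.04 for Pkd2-/- against wild-type and -0.43 between the mutants. Over all genes tested they were 0.01, -0.01 and -0.01. With 7 genes each median is the value of a single gene. The -0.16 is that of Bex3, and the -1.04 that of Bex2, which was near 0 in all groups. The -0.43 is that of Bex4, which led to the choice of the family and did not pass between the mutants.

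**Figure D4:**
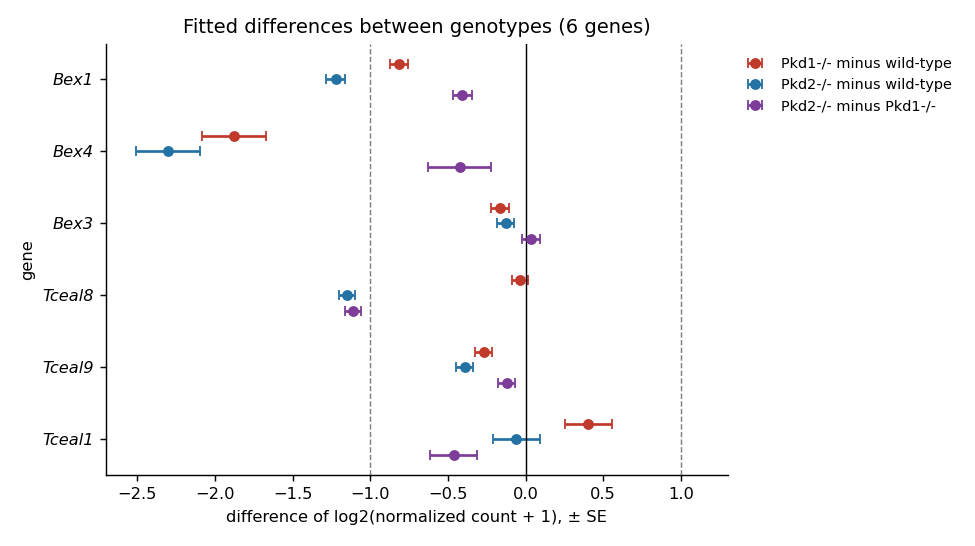
Fitted differences between genotypes for 6 genes (Bex2 is left out, being near 0), in log2 of the normalized count plus 1, with whiskers of 1 SE; dashed lines mark a difference of 1. Bex4 and Bex1 lie left of 0 in both mutants, and Tceal8 does so in Pkd2-/- (-1.15) but not in Pkd1-/- (-0.03).

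The pattern of the genes can be set beside each other through the root mean square difference of their log2 values over the 12 libraries, each counted from its wild-type mean. By this measure the closest pair was Bex3 with Tceal9 (0.18), followed by Bex3 with Tceal1 (0.38) and Bex1 with Tceal8 (0.46), and Bex1 and Bex4, with the same promoter letters, were 0.90 apart. Among the 13702 genes averaging 10 or more normalized counts, the nearest to Bex4 were Cdk14 (0.35), a cyclin-dependent kinase, Spp1 (0.36), which encodes the secreted phosphoprotein osteopontin, Tm4sf1 (0.40), a tetraspanin-like surface protein, Ffar4 (0.41), a fatty acid receptor, and Scnn1g (0.42), the gamma subunit of the epithelial sodium channel. Group means, in the order wild-type, Pkd1-/-, Pkd2-/-, ran from 98.2, 32.5 and 18.2 normalized counts for Cdk14 to 3866, 1018 and 1027 for Spp1. None of the 5 lies on chromosome X, and all were picked for their likeness to Bex4.

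Other Bex and Tceal genes were scarcely used. Bex6, Tceal3, Tceal5 and Tceal6 were listed at 0 in all 12 libraries. Tceal7 had 14, 17, 8 and 10 normalized counts in wild-type, 7, 5, 6 and 0 in Pkd1-/- and 3, 2, 1 and 8 in Pkd2-/- libraries. It was lower in Pkd2-/- cells than in wild-type, with a log2 difference of -1.74 (SE 0.59; limma, adjusted p = 0.0244), while the -1.58 in Pkd1-/- cells did not pass (adjusted p = 0.0576). The Pkd2-/- and wild-type libraries of Tceal7 overlapped. Tceal7 is of the family that was chosen through contrasts with wild-type, so these tests are not separate from that choice. Because Tceal7 overlaps the more abundant Bex1 on the other strand, its few counts may hold Bex1 reads, which was not tested.

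The Armcx and Gprasp genes, relatives of each other that lie near the Bex and Tceal cluster on chromosome X, moved in opposite directions in the mutants for a pair of members. Of their 50-base transcript windows, 29% in Armcx3 also occur in a transcript of another gene. None did in Armcx1, Armcx2 and Armcx4, and 7.44% to 14.8% did in the others. How reads from such places were assigned is not given, as for the Bex genes. All 9 were tested. In Pkd1-/- cells 2 were called higher than in wild-type and none lower, where 6.24% of the 18552 genes tested were called, 2.96% higher and 3.28% lower. In Pkd2-/- cells 5 were called lower and none higher, where 9.62% of all genes were called, 6.38% lower and 3.24% higher. Between the mutants 5 were called lower in Pkd2-/- cells and none higher (7.23% and 4.53% of all genes). Armcx3, which encodes a protein of the outer mitochondrial membrane, had 15, 11, 18 and 15 normalized counts in wild-type, 50, 65, 47 and 43 in Pkd1-/- and 0, 0, 0 and 2 in Pkd2-/- libraries. Armcx4 had 23, 25, 34 and 42, then 76, 74, 90 and 73, then 0, 0, 0 and 2. Both rose in Pkd1-/- cells, by 1.73 (SE 0.37; limma, adjusted p = 0.0014) and 1.34 (SE 0.35; adjusted p = 0.00694). Both were close to absent in Pkd2-/- cells, where Armcx4 was at least 10.3-fold lower than in wild-type and at least 26.1-fold lower than in Pkd1-/- cells, and Armcx3 at least 4.92-fold and 17.1-fold lower, taking 3 counts per library as the floor.

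Armcx2 and Gprasp2 were low everywhere and at most 2 normalized counts in Pkd2-/- libraries (at least 3.92-fold and 5.17-fold lower than wild-type). Armcx1, named because it completes the 5 called, had 290 to 363 in wild-type, 350 to 421 in Pkd1-/- and 104 to 149 in Pkd2-/- libraries, a fall of 1.21 on the log2 scale against wild-type (SE 0.12; limma, adjusted p = 8.13e-08). Their neighbours Bhlhb9 (1854 to 2161 in all 12 libraries), Armcx5 (279 to 377) and Gprasp1 (304 to 415) passed no test in any comparison, with adjusted p of 0.322 or more. Against wild-type, the median Armcx or Gprasp gene differed by 0.29 in Pkd1-/- and by -1.21 in Pkd2-/- cells, and the median between the mutants was -1.73, or -1.50 with genes near 0 at their bound.

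Along chromosome X, 42 protein-coding genes lie within 1 Mb of the outermost members. Of the 35 that are not members, 14 were tested; some of these are also among the Armcx and Gprasp genes. In Pkd1-/- cells 1 was called higher than in wild-type, Esx1, a homeobox gene listed at 0 in all wild-type and Pkd2-/- libraries with a mean of 7.25 in Pkd1-/-. In Pkd2-/- cells 3 were called lower, Gprasp2, Arxes2 and Tceal7. The limits given above for Tceal7, which is of the family and may hold Bex1 reads, apply here too. Arxes2, an adipocyte-related gene, averaged 120.5 normalized counts in wild-type libraries, 149.5 in Pkd1-/- ones and 28 in Pkd2-/- ones, a fall of 2.11 on the log2 scale against wild-type (limma, adjusted p = 1.50e-07). Between the mutants Gprasp2, Arxes2, Tmsb15b1 and Esx1 were lower and Zcchc18 higher in Pkd2-/- cells. Over all 18552 genes tested, filtered as these 14 were, 2.96% were called higher and 3.28% lower in Pkd1-/- cells than in wild-type. In Pkd2-/- cells 3.24% were called higher and 6.38% lower than in wild-type. Between the mutants 4.53% were higher and 7.23% lower in Pkd2-/- cells. Gprasp2, Tceal7, Esx1 and Zcchc18 averaged under 10 normalized counts (8.75, 6.75, 2.42 and 2.42). A stricter filter gave the 476 chromosome X genes averaging 10 or more. Of these, 6.93% were called either way in Pkd1-/- and 10.7% in Pkd2-/- cells against wild-type, and 10.7% between the mutants. The medians over these 14 were -0.01 (Pkd1-/- against wild-type), -0.07 (Pkd2-/- against wild-type) and -0.11 (between the mutants), and those over the 476 genes were 0.04, -0.08 and -0.13.

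**Figure D5:**
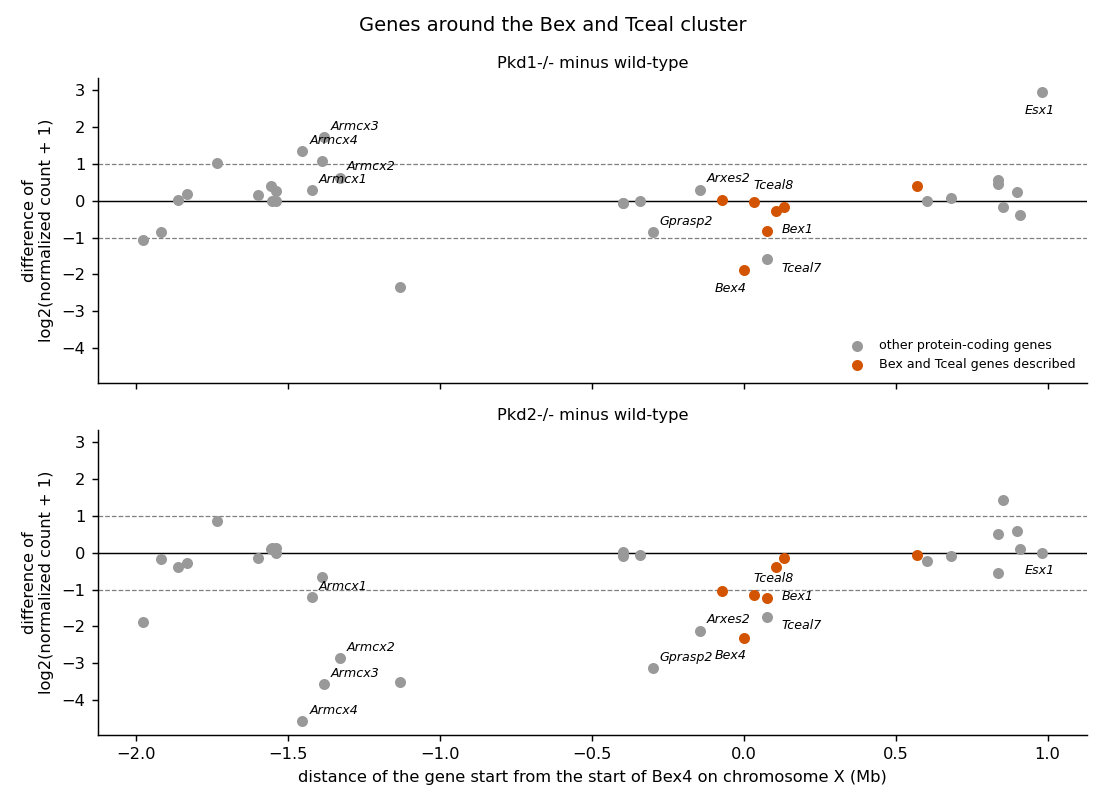
Fitted difference of each tested protein-coding gene (y axis, log2 of the normalized count plus 1) by its distance from the start of Bex4 on chromosome X (x axis, Mb), in Pkd1-/- (top) and Pkd2-/- cells (bottom) against wild-type; dashed lines mark a difference of 1. Genes with large and small differences lie next to each other, and Armcx3 and Armcx4 lie above 1 in the upper panel and below -3 in the lower one, where they are near 0 counts and the fitted value is no bound.

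The receptor that Bex1 and Bex3 bind was close to absent. Ngfr, which encodes p75, had at most 4 normalized counts in any library, and its co-receptors Ntrk2, Ntrk3 and Lingo1 were not tested for want of counts. Of the 16 genes of the p75 pathway list, 10 were tested. Against wild-type, 3 passed an adjusted p of 0.05 upward and none downward in Pkd1-/- cells (13.6% and 13.5% of all genes, 27.1% together), and 2 upward and 6 downward in Pkd2-/- cells (20% and 22.3%). Rtn4r, the Nogo receptor, rose in Pkd1-/- cells by 2.23 (SE 0.13; limma, adjusted p = 1.47e-10), from 67 to 83 in wild-type to 333 to 402, and stayed at 67 to 89 in Pkd2-/- libraries. Sorcs2, a pro-neurotrophin receptor, fell in Pkd2-/- cells from 30 to 46 down to 1 to 6 (-3.10, SE 0.33; adjusted p = 3.17e-07). Ripk2, a kinase downstream of p75, was called only between the mutants, lower in Pkd2-/- with a log2 difference of -1.11 (SE 0.10; adjusted p = 3.99e-08).

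Of a list of transcription elongation factors, 19 of 19 were tested. It holds the Tcea genes, after which the Tceal genes are named, and factors of other families. None was called against wild-type in either mutant, where 6.24% of all genes were called in Pkd1-/- and 9.62% in Pkd2-/- cells. Between the mutants 1 of the 19 was called, against 11.8% of all genes. At an adjusted p under 0.05 with no limit on size, 5 were higher and 1 lower in Pkd1-/- cells (13.6% and 13.5% of all genes), and 7 higher and 5 lower in Pkd2-/- cells (20% and 22.3%, 42.3% together). Tcea1, the general form of TFIIS, averaged 1725 ± 150 (SD, n = 4) normalized counts in wild-type libraries, 1743 ± 58.9 in Pkd1-/- ones and 2052 ± 62.4 in Pkd2-/- ones, a rise of 0.25 for the last against wild-type (SE 0.06; limma, adjusted p = 0.00142). Ell2, a subunit of the super elongation complex, was the 1 called gene, lower in Pkd2-/- than in Pkd1-/- cells with a log2 difference of -1.24 (SE 0.12; adjusted p = 5.90e-08), with 153 to 209 against 412 to 442 normalized counts.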

How the data were processed

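The authors used Trim Galore and FastQC on the reads, HISAT2 with mm10 for alignment, HTSeq to count reads over Ensembl genes, and DESeq2 size factors to scale the counts; the strand setting is not given in the sources used here. The deposited values are these normalized counts rounded to whole numbers, a score and not raw counts, so no count model was used. The tests fixed for the report fitted log2(normalized count + 1) with limma 3.58.1 (R 4.3.3, trend) for the 18552 genes averaging 1 or more normalized counts, all 12 libraries in one model, and adjusted p-values by Benjamini-Hochberg within each comparison; called means an adjusted p under 0.05 and a log2 difference of at least 1. Single genes also had exact two-sided permutation tests between the mutants (7 genes). The pipeline was tested on simulated data. Of 47642 identifiers, 47223 matched GENCODE M21 (GRCm38), which gave symbols, exon lengths and coordinates.

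The genes and lists were chosen with earlier results of these data known. Named were the 7 genes, other Bex and Tceal genes, up to 4 called genes per list with the largest differences, Tcea1, Ngfr, the 5 genes most like Bex4, and called neighbours within 1 Mb. Alternatives were other pseudocounts (0.5, 5), no filter or a mean of at least 10, a replicate block, pairs of genotypes alone, upper-quartile scaling and leaving out each library. The libraries of a genotype came from separate dishes of one line or clone, so p-values set a difference against the spread between dishes only. Of 6 dishes grown per genotype, the authors sequenced the 4 with the best RNA purity ratios. Some genes of the p75 pathway list are not reported here by name.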

Additional observations from a re-analysis of the deposited data

Results flagged for a closer look

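In groups of 4 libraries, the highest or lowest value was examined for a gap to the next that, as a share of the group's range, exceeded Dixon's 95% critical value. Among 50 groups examined, 7 had such a gap; chance gives about 1 in 20. Bex4 had 48 normalized counts in Pkd1-/- replicate 1 against 35, 36 and 37 in the others. Armcx1 had 363 in wild-type replicate 1 against 290, 294 and 301. The remaining 5 lie at a few counts: Bex2 at 3 in Pkd2-/- replicate 1, Armcx2 at 0 in Pkd2-/- replicate 2 against 1 in the others, Armcx3 and Armcx4 at 2 each in Pkd2-/- replicate 4, and Armcx6 at 5 in wild-type replicate 3, the others being at 0.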

How the results depend on the processing

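Of 396 values recomputed for the 21 fitted differences of the 7 genes, 390 either moved by less than the SD between libraries (differences against wild-type, which carry no test) or stayed on the same side of the threshold (between the mutants); Bex2 gave no value with a mean of at least 10. Between the mutants, Bex4 passed without Pkd2-/- replicate 2 (-0.55, adjusted p = 0.0464), and Tceal9 passed with upper-quartile scaling (-0.17, adjusted p = 0.0307) and without Pkd1-/- replicate 4 (-0.16, adjusted p = 0.0337); the cause was not tested. Without single libraries the count of the 7 genes called between the mutants stayed at 1, and it was 3 with no limit on size. The counts of all genes called were 1158 in Pkd1-/- and 1785 in Pkd2-/- cells against wild-type and 2182 between the mutants, with 1095 to 1164, 1698 to 1793 and 2061 to 2186 when one library was left out. With no limit on size they were 5020, 7852 and 8588, and with a mean of at least 10 the first was 739, from fewer genes. The replicate block on the numbers left the count of the 7 genes called between the mutants at 1 and brought Tceal9 to -0.12 with an adjusted p of 0.0482. Same-numbered libraries share only a number: over 12 pairs their deviations correlated at -0.0726 to 0.2, and 3 libraries correlated best with their own number.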
